A study of Sus scrofa with 12 samples.

Results

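Enzymes and carriers of mitochondrial fatty acid oxidation were described in RNA-seq counts of longissimus dorsi, the loin muscle, from 12 Iberian pigs. The set was named by its function and not by any measured value: CPT1B, CPT2, SLC25A20, ACADM, ACADVL, ACADL, HADHA, HADHB, ECI1 and DECR1. Of these 10 genes, 9 had a row among the 25880 genes of the count tables, and no value could be given for ECI1, an enoyl-CoA isomerase. All 9 genes with a row passed the filter on low counts, with between 1147 and 27271 counts per pig. The study chose 6 pigs with a high breeding value for muscle myoglobin (High MB group) and 6 with a low one (Low MB group), all castrated males of a closed population fattened outdoors on acorns and grass. High MB pigs held 2.48 ± 0.0657 mg of myoglobin per g of muscle and Low MB pigs 1.39 ± 0.147 mg (SD, n = 6 each). One library was made per pig, so a group mean rests on 6 animals, which the study chose so that no full siblings were among them.

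Long-chain fatty acids cannot cross the inner mitochondrial membrane as CoA esters, so muscle carries them in bound to carnitine and cuts them inside the matrix, 1 acetyl unit at a time. CPT1B, the muscle form of the outer membrane transferase, makes the acylcarnitine, SLC25A20 exchanges it for free carnitine across the inner membrane, and CPT2 restores the CoA ester. ACADVL, ACADL and ACADM, the very long, long and medium chain acyl-CoA dehydrogenases, open each cycle, and the trifunctional protein, with its alpha subunit HADHA and its beta subunit HADHB, completes it for long chains. DECR1, a dienoyl-CoA reductase, and ECI1 handle the double bonds of unsaturated fatty acids, as does ECH1, the dienoyl-CoA isomerase whose transcript change in these pigs gave the reason to look at the pathway.

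HADHA and HADHB lie head to head on chromosome 3 of Sscrofa11.1, HADHB on the minus strand (chr3:112712894-112753121) and HADHA on the plus strand (chr3:112753343-112797627). Both therefore start at the ends of the same stretch of 221 bases (chr3:112753122-112753342, GC content 62.9%), which is shown, read on the plus strand, because the levels of both genes are compared below.
HADHB to HADHA: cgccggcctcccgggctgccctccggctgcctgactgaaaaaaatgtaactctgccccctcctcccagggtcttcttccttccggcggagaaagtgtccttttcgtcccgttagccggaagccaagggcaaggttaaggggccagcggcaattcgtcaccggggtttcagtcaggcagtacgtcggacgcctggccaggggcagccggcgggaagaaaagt

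The motif AGGTCA, bound by nuclear receptors such as the PPAR and ERR families that regulate this pathway, was looked for on both strands from 250 bases before to 50 bases after each RefSeq start. Among the 9 genes with counts, CPT2 and DECR1 held 1 copy each. ECI1, which has no counts, held 1 copy as well. Of 19531 promoters of the same length in the pig genome, 14.1% held at least 1 copy of the motif. A direct repeat of it with 1 base between the copies (DR1) and the extended site TCAAGGTCA were in none of the 9, and in 0.0307% and 0.358% of all promoters. TCAAGGTCA and the direct repeat contain AGGTCA, so the searches overlap. The promoters of CPT2 (chr6:159061278-159061577) and DECR1 (chr4:46767378-46767677), both on the minus strand and read 5′ to 3′ along the gene, are shown. They are the ones with the motif among the 9 genes with counts. The motif is in capitals and begins 212 bases before the CPT2 start and 155 bases before the DECR1 start.
CPT2: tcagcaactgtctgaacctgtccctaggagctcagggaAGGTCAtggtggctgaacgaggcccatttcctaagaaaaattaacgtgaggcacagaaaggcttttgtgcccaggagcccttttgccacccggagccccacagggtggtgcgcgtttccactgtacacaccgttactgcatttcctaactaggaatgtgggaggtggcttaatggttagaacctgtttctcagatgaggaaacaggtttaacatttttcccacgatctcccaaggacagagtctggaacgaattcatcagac
DECR1: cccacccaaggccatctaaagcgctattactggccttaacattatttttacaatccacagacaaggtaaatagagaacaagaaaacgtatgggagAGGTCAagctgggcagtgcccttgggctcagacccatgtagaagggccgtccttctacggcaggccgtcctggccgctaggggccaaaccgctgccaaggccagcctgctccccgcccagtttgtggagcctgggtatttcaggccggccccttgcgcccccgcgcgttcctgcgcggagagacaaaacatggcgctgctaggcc

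Gene counts per library summed to between 38914271 and 91318334. They fell into 5 deep libraries (High MB pigs 4 and 6, Low MB pigs 1, 5 and 6) with at least 59227608 counts and 7 standard libraries with at most 40001432, and both groups held both classes. The library of High MB pig 2, with a median correlation of 0.948 with the other libraries in log2 expression, and that of Low MB pig 4, with 0.962, stood apart from the rest (at least 0.967). In High MB pig 2 the 6 skeletal muscle markers with a row summed to 42633 CPM (counts per 1000000 library counts, after TMM scaling), against 71992 to 125350 in the other pigs, and 6 macrophage markers to 108.5 CPM against 20.8 to 55.4. Counts of genes and several fold changes are also given without these libraries. Correlations between genes are given with them only.

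The genes differed in level by over an order of magnitude. Per kilobase of RefSeq exon, the mean over all pigs was 169 ± 42.2 CPM for ACADM, 127 ± 33.1 for HADHB, 116 ± 22.5 for HADHA, 64.6 ± 16.8 for ACADVL, 61.6 ± 14.4 for CPT1B, 50.2 ± 11.7 for ACADL, 34.1 ± 4.63 for SLC25A20, 27.1 ± 5.34 for DECR1 and 10.3 ± 2.44 for CPT2 (SD, n = 12). The medium chain dehydrogenase and both subunits of the trifunctional protein stood at the top of this order, and CPT2, the inner membrane transferase, at the bottom. Of the 8 neighbouring pairs in the order, only ACADVL and CPT1B did not differ beyond the spread between pigs (exact two-sided sign-flip permutation test over 12 pigs, p = 0.304), and the other pairs had Benjamini-Hochberg adjusted p between 0.0013 and 0.0446. These pairs were taken from an order set by the same values, and the test does not cover the length used, on which the order depends. By coding length, SLC25A20 (66.9 ± 9.07 CPM per kb), ACADL (66.1 ± 15.4) and DECR1 (64.2 ± 12.7) lay close together, with SLC25A20 above ACADL. Per kilobase of coding sequence, ACADVL, whose exon union of 4729 bases holds 2046 coding bases, had 149 ± 38.9 CPM and stood above HADHA with 137 ± 26.6 CPM. Its annotated span also shares 501 bases with DLG4 and 69 with DVL2 on the opposite strand, and the strand setting of the counting is not given in the sources used here, so reads there may be shared.

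**Figure D1:**
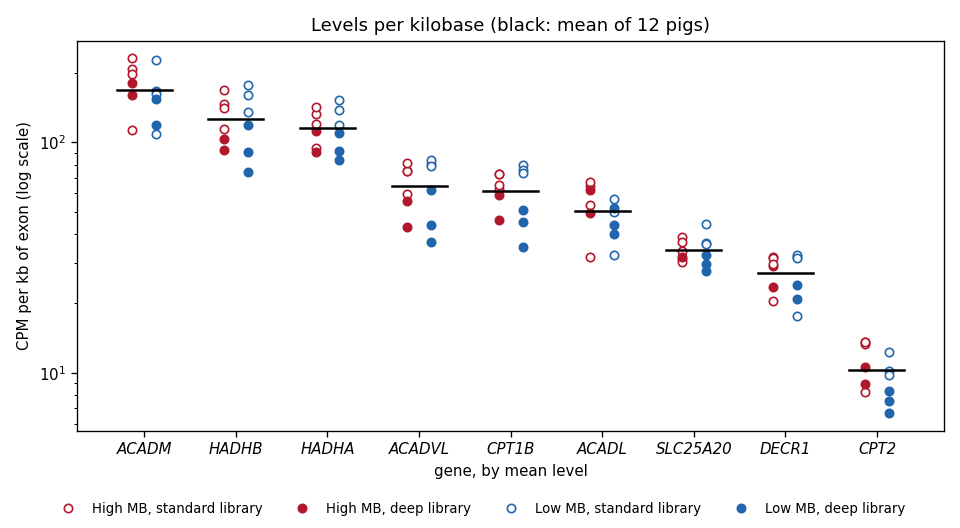
CPM per kilobase of exon on a log axis for each of the 9 genes, with each pig as a point (red, High MB; blue, Low MB; filled, deep library; open, standard library) and the mean of 12 pigs as a black line. ACADM has the highest mean, 169, and CPT2 the lowest, 10.3, and the points of the groups overlap in every gene.

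The comparison of the High MB with the Low MB group asked whether the fatty acid oxidation genes differed with breeding value for myoglobin. In no gene of the set was a difference found that was larger than the spread between pigs. By edgeR, 0 of 9 genes passed the call (adjusted p under 0.10 and absolute log2 fold change over 0.58), as did 0.0% of the 13373 genes tested, and 0 of 9 had an unadjusted p under 0.05, against 8.46% of all genes. DESeq2 called 29 genes among 19158, and none of the 9. The log2 fold change was positive in 7 and negative in 2 of the 9, with a median of 0.07 beside -0.02 over all genes tested, and in each of the 9 the CPM of the groups overlapped, while in 0.426% of all genes they did not.

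In the carnitine shuttle, CPT2 had the largest difference of the set. Its CPM ranged from 24.9 through a median of 36.1 to 41.2 in the High MB group, and from 20.2 through 27.4 to 37.0 in the Low MB group. High MB pigs 1, 3 and 5 lay above every Low MB pig, and the other High MB pigs lay within the Low MB range. The group means were 34.4 ± 7.40 and 27.6 ± 6.09 CPM (SD, n = 6), which gave a log2 fold change of 0.32 ± 0.169 (SE; 95% interval -0.058 to 0.69; edgeR p = 0.0797, adjusted p = 0.61) and an exact permutation p of 0.123. Without High MB pig 2, which at 24.9 CPM was the lowest of its group, the log2 fold change was 0.42 and its unadjusted edgeR p was under 0.05 (adjusted p = 0.466). The same held without Low MB pig 2 (0.43, edgeR adjusted p = 0.741) and without High MB pig 6 (0.38, edgeR adjusted p = 0.69), and no exact permutation p was under 0.05 with 1 pig left out (0.0541 to 0.232).

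CPT1B, which sets the entry of acyl groups and is the site of inhibition by malonyl-CoA, ranged from 131 through 182 to 208 CPM in the High MB group and from 100.3 through 177 to 227 CPM in the Low MB group. The Low MB group held the 3 highest pigs and 3 of the 4 lowest, so its SD on the log2 scale (0.48) was above that of the High MB group (0.24). The log2 fold change was 0.07 ± 0.195 (SE; 95% interval -0.36 to 0.51; edgeR adjusted p = 0.94). SLC25A20, the carnitine-acylcarnitine carrier, varied least of the set, from 53.6 through 58.1 to 68.9 CPM and from 49.0 through 60.9 to 78.6 CPM, with a log2 fold change of -0.03 ± 0.120 (SE; 95% interval -0.30 to 0.24; edgeR adjusted p = 0.967). For both genes the Low MB range enclosed the High MB range.

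Among the acyl-CoA dehydrogenases, ACADL ranged from 54.1 through 98.2 to 114 CPM in the High MB group and from 55.0 through 79.6 to 96.9 CPM in the Low MB group. High MB pigs 1, 3 and 4 lay above every Low MB pig, and High MB pig 2 below all of them. The log2 fold change was 0.26 ± 0.179 (SE; 95% interval -0.14 to 0.66; edgeR p = 0.172, adjusted p = 0.699; exact permutation p = 0.264). Without High MB pig 2 it was 0.40 (edgeR unadjusted p = 0.0131; exact permutation p = 0.0325), so this 1 library decides on which side of an unadjusted threshold of 0.05 the gene falls. ACADM, the most abundant per kilobase, ranged from 207 through 346 to 424 CPM and from 199 through 290.1 to 417 CPM, with a log2 fold change of 0.22 ± 0.195 (SE; edgeR adjusted p = 0.773). Its lowest pigs were Low MB pig 4 and High MB pig 2, the same pigs that were lowest in ACADL. With 1 pig left out, the log2 fold change of ACADM was 0.14 to 0.37 (exact permutation p 0.0974 to 0.556). ACADVL, which acts on the longest chains, ranged from 203 through 318 to 385 CPM and from 174 through 333 to 395 CPM, with a log2 fold change of 0.02 ± 0.217 (SE; 95% interval -0.47 to 0.50; edgeR adjusted p = 0.991).

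With both libraries that stand apart left out (High MB pig 2 and Low MB pig 4), an alternative added after seeing the data, CPT2 had a log2 fold change of 0.44 and ACADL one of 0.32. These 2 of 9 genes then had an unadjusted edgeR p under 0.05, beside 8.17% of all genes, and an adjusted p of 0.594.

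For both subunits of the trifunctional protein the estimated difference between the groups was close to 0. HADHA ranged from 247 through 315 to 385 CPM in the High MB group and from 228 through 311 to 413 CPM in the Low MB group (log2 fold change -0.0039 ± 0.164, SE; 95% interval -0.37 to 0.36; edgeR adjusted p = 0.996). HADHB ranged from 219.97 through 305 to 401 CPM and from 177 through 303 to 422 CPM (0.02 ± 0.211, SE; 95% interval -0.45 to 0.49; edgeR adjusted p = 0.989). Low MB pig 2 was the highest and Low MB pig 6 the lowest of all 12 pigs in both, so the extremes of both subunits lay in the same group. The auxiliary enzyme DECR1 ranged from 48.1 through 68.8 to 74.4 CPM and from 41.4 through 64.9 to 76.2 CPM (0.07 ± 0.166, SE; 95% interval -0.30 to 0.44; edgeR adjusted p = 0.93).

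**Figure D2:**
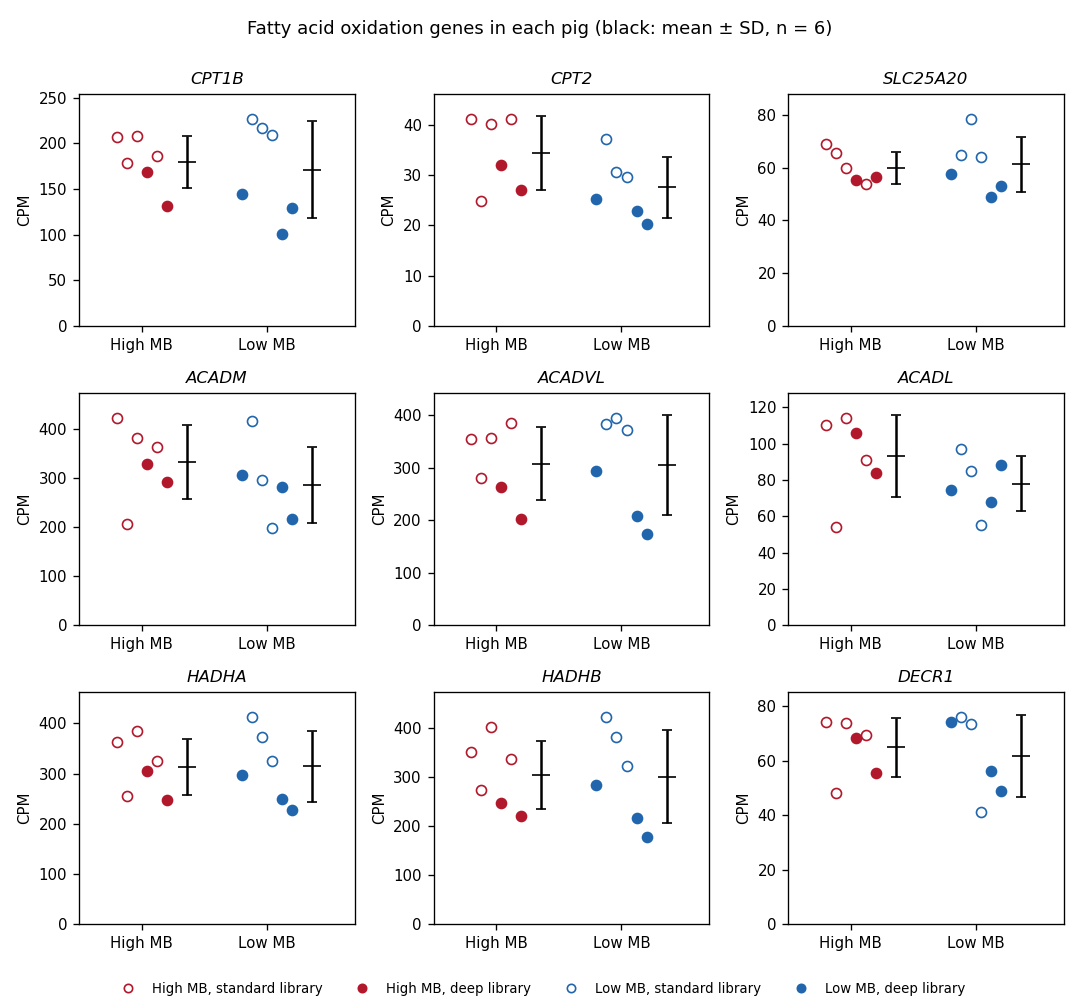
CPM of the 9 genes in each pig, with axes from 0, red for the High MB and blue for the Low MB group, filled points for deep and open points for standard libraries, and the mean ± SD of 6 pigs in black. The groups overlap in all 9 panels, and in CPT1B every filled point lies below every open point.

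Within the groups, the levels were set against the myoglobin content of the same muscle. Of 18 relations (9 genes in each of 2 groups of 6 pigs) none had a permutation p under 0.05 for Pearson's r or Spearman's rho, with r from -0.19 to 0.55 among High MB pigs and from -0.55 to 0.58 among Low MB pigs. The smallest Benjamini-Hochberg adjusted exact permutation p was 0.744 for r and 0.963 for rho. The highest single value was that of SLC25A20 in the Low MB group (r = 0.58, exact permutation p = 0.231, rho = 0.37, exact permutation p = 0.497, n = 6). Without the 2 pigs farthest from the median myoglobin content, r over the 4 left was between 0.98 and 0.99 for CPT2, ACADVL, HADHA and HADHB and -0.88 for ACADL among Low MB pigs, and it turned from 0.49 to -0.43 for CPT1B among High MB pigs. The size of r thus changed with 2 of 6 pigs, and r over 4 pigs was not tested.

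Between the depth classes of the libraries, most of the 9 genes differed in 1 direction. This comparison was chosen after the values were seen, keeps the group as a term of the edgeR fit and sets 5 deep against 7 standard libraries. The fitted level was lower in the deep libraries for 8 genes and near 0 for ACADL, with a median log2 difference of -0.40 beside -0.01 over all genes, and 6 of 9 had an unadjusted p under 0.05, while 8.08% of the 13373 genes were lower and 5.78% higher at that threshold. No adjusted p reached 0.10, in these genes or in any other, and the smallest was 0.137. The log2 difference was -0.67 ± 0.143 for ACADVL, -0.65 ± 0.142 for HADHB, -0.60 ± 0.127 for CPT1B, -0.42 ± 0.138 for CPT2, -0.40 ± 0.133 for HADHA and -0.27 ± 0.103 for SLC25A20 (SE). The 3 genes without a p under 0.05 were ACADM (-0.16 ± 0.20, SE), DECR1 (-0.10 ± 0.173) and ACADL (-0.0036 ± 0.188). The sign of ACADL turned with RLE (0.0015) and upper quartile size factors (0.047), without the 10 most counted genes (0.0016) and in 7 of 12 fits with 1 pig left out (-0.095 to 0.081 over the 12).

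CPT1B was the clearest case. It ranged from 100.3 through 131 to 169 CPM in the deep and from 179 through 208 to 227 CPM in the standard libraries, with no overlap (exact permutation p = 0.00126), a separation in this direction that 0.651% of all genes showed. For ACADVL and HADHB, 6 of 7 standard libraries lay above every deep one (exact permutation p = 0.00253 for both). In the 6 genes the sign was the same within the High MB and within the Low MB group, from -0.14 to -0.57 in the former and from -0.38 to -0.82 in the latter on the log2 scale. Leaving out 1 pig at a time kept 5 or 6 genes lower at an unadjusted p under 0.05, beside 5.51% to 9.15% of all genes. Leaving out both libraries that stand apart gave 8 of 9, with ACADM and DECR1 added, beside 5.61% of all genes.

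Other genes moved with the depth class as well. Of 6 skeletal muscle markers tested, 4 were higher in the deep libraries at an unadjusted p under 0.05 (ACTA1, TNNT3, TNNI2 and CASQ1, by edgeR). At that threshold 5.78% of all genes were higher. The difference was positive for 5 of the 6 and negative for 1 (-0.29), with a median of 0.38. The count that passed was 1 without High MB pig 6 or Low MB pig 5. It was 2 without High MB pig 4 or Low MB pig 2, 3 or 4, and 3 to 5 without any other pig. Of 6 fast glycolytic fibre markers, 4 were higher as well (TNNI2 and TNNT3, which both lists hold, TNNC2 and ACTN3), with all 6 differences positive and a median of 0.35. That count was 1 to 5 with 1 pig left out (1 without High MB pig 4 or 6 or Low MB pig 5) and 5 without both libraries that stand apart, while 0 of 6 slow fibre markers passed. The summed level of the 6 skeletal muscle markers was 89151 to 125350 CPM in the deep and 42633 to 86567 CPM in the standard libraries (71992 to 86567 without High MB pig 2). All 3 smooth muscle markers passed as well, but 0 did without High MB pig 6. Their sum ran from 56.9 (Low MB pig 1, the lowest of 12) to 627 CPM (High MB pig 6) in the deep and from 92.5 to 141 CPM in the standard libraries, so the classes overlapped. All 9 adipocyte markers had a positive difference (median 0.83), of which 1 passed, 4 did without High MB pig 6 and 0 without both libraries that stand apart. Their sum overlapped between the classes (489 to 816 CPM in the deep and 433 to 898 CPM in the standard libraries). Of the endothelial, fibroblast, macrophage and erythrocyte markers 0 passed, with medians of 0.04, 0.23, -0.41 and 0.35. Of 6 markers of mitochondrial content, such as citrate synthase CS, 0 passed in either direction, with all 6 differences negative (median -0.14). Without High MB pig 3, 2 were lower, and 1 was without High MB pig 2, without Low MB pig 1 or without both libraries that stand apart. The 10 most counted genes took 20.1% to 24.5% of the gene counts in the deep and 13.0% to 20.5% in the standard libraries. The part of depth, composition or handling of the samples in the lower levels was not tested.

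Within the depth classes, the difference between High MB and Low MB pigs was positive for all 9 genes in the deep libraries (0.06 to 0.38 on the log2 scale). In the standard libraries it was between -0.14 and -0.17 for CPT1B, SLC25A20, ACADVL, HADHA and HADHB and between 0.09 and 0.21 for CPT2, ACADM, ACADL and DECR1. These values rest on 2 against 3 and 4 against 3 pigs and were not tested. With the depth class as a covariate, 0 of 9 genes had an unadjusted edgeR p under 0.05, and the smallest was that of CPT2 (0.26 ± 0.135, SE; adjusted p = 0.523).

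**Figure D3:**
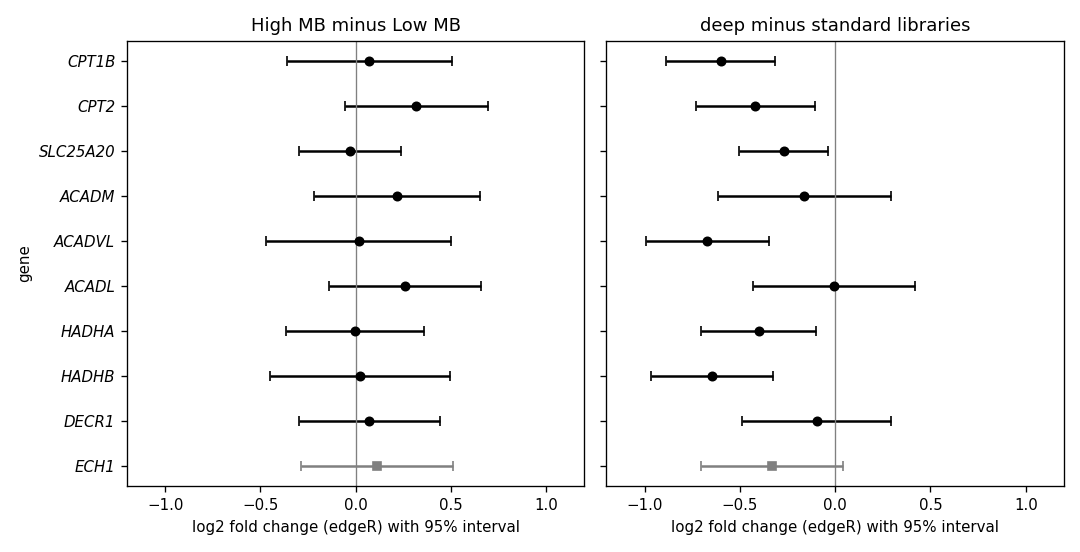
edgeR log2 fold changes with 95% intervals for the 9 genes (black circles) and the ECH1 gene (grey square), for High MB minus Low MB on the left and for deep minus standard libraries on the right. All intervals on the left include 0, and on the right those of CPT1B, CPT2, SLC25A20, ACADVL, HADHA and HADHB lie below 0.

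HADHA and HADHB varied together (r = 0.954 over 12 pigs). So did ACADVL, which lies on chromosome 12, with HADHB (0.956) and with HADHA (0.901). Within the standard libraries r was 0.98 for HADHA with HADHB, 0.73 for ACADVL with HADHB and 0.78 for ACADVL with HADHA. The part of the stretch shown above was not tested. The ratio of HADHA to HADHB counts was between 0.935 and 1.29 over 12 pigs, with an SD of the log2 ratio of 0.15 beside 0.28 for HADHA and 0.40 for HADHB. It was 1.04 ± 0.117 in the High MB and 1.08 ± 0.122 in the Low MB group (SD, n = 6), without a difference beyond the spread between pigs (exact permutation p = 0.619). It did separate the depth classes, from 1.05 to 1.29 in the deep and from 0.935 to 1.03 in the standard libraries (exact permutation p = 0.00126), so HADHB was lower relative to HADHA in every deep library. This contrast too was chosen after the values were seen.

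**Figure D4:**
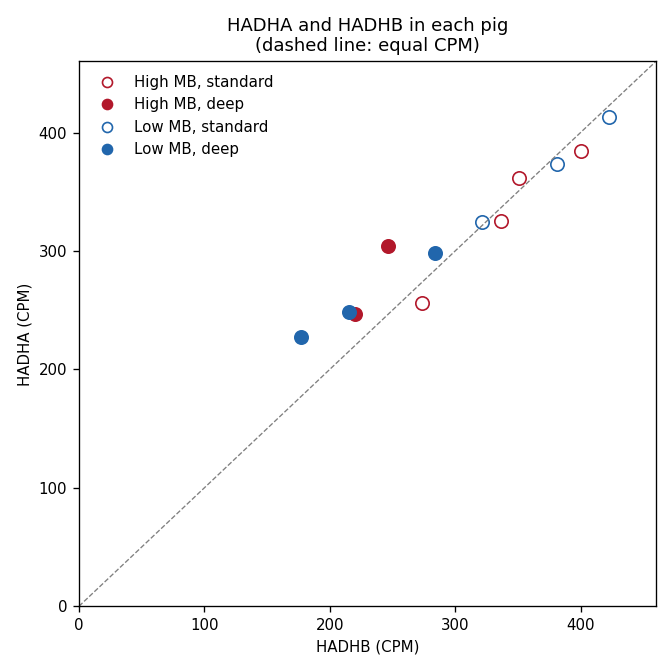
HADHA against HADHB in CPM, 1 point per pig (red, High MB; blue, Low MB; filled, deep; open, standard), with a dashed line at equal levels. The 5 deep libraries lie above the line and the 7 standard ones near it, with count ratios of at least 1.05 and at most 1.03.

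Over all 12 pigs, 35 of the 36 pairs of genes correlated positively (median Pearson's r 0.66, median Spearman's rho 0.67 on log2 CPM), and 19 pairs had a Benjamini-Hochberg adjusted permutation p under 0.05 for r and 21 for rho. The median r was 0.60 without the 2 pigs farthest from the median of the first gene of each pair, 0.74 within the High MB and 0.62 within the Low MB group. Since the depth classes differ in level, the pairs were also computed within the 7 standard libraries, where the median r was 0.67 and 3 pairs passed: HADHA with HADHB (r = 0.98, adjusted permutation p = 0.00714), ACADM with ACADL (r = 0.96, adjusted permutation p = 0.0476) and CPT2 with ACADL (r = 0.89, adjusted permutation p = 0.0476). High MB pig 2 and Low MB pig 4 are among these 7 and were the lowest of them in ACADM and ACADL, and r without both was not computed. Over 12 pigs r was 0.82 for ACADM with ACADL and 0.60 for CPT2 with ACADL. Without the 2 pigs farthest from the median of the first gene it was 0.60 and 0.78. Pairs were not correlated within the deep class, which holds 5 pigs. SLC25A20 had its lowest r with ACADL (-0.0046), ACADM (0.09), DECR1 (0.22) and CPT2 (0.36) and higher ones with HADHA (0.61), ACADVL (0.66), HADHB (0.67) and CPT1B (0.78) over 12 pigs. Within the standard libraries r was 0.16, 0.02, 0.11 and 0.45 with these 4, and -0.10, -0.16, 0.06 and -0.43 with ACADL, ACADM, DECR1 and CPT2. That with CPT2 was the lowest of the 36 pairs there.

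Averaged over the 9 genes after standardising each over the pigs, Low MB pig 2 (1.01 SD units) and High MB pig 1 (0.94) were highest and lay above the mean in all 9 genes. Low MB pigs 6 (-1.23) and 5 (-1.08) were lowest, and above the mean in 1 and 0 genes. The highest and the lowest pigs were thus both of the Low MB group, and the 9 genes together took between 0.111% (Low MB pig 5) and 0.218% (Low MB pig 2) of the gene counts.

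**Figure D5:**
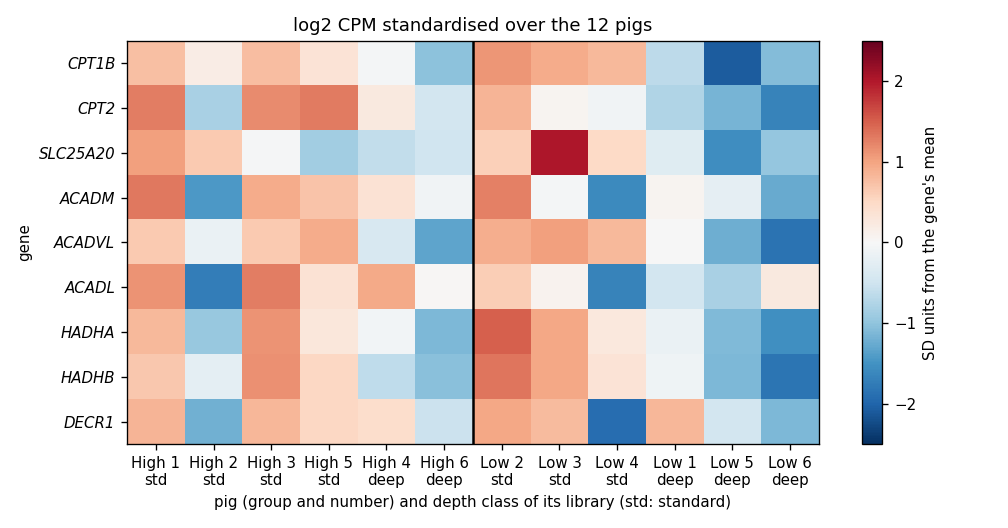
log2 CPM of the 9 genes in units of SD from each gene's mean over 12 pigs, with the High MB pigs left and the Low MB pigs right of the black line, and standard before deep libraries within each group. Low MB pigs 5 and 6 are mostly blue (lower), Low MB pig 2 and High MB pig 1 red (higher) in all 9 rows, and no row parts the groups.

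The genes whose pattern over 12 pigs was most like the mean of the set were PAFAH2 (r = 0.94), ENTPD5 (0.94), NUP210 (0.94), NDUFS1 (0.90), ECH1 (0.90), CIB1 (0.89), SMIM29 (0.89), ENSSSCG00000021041 (0.89), PDHA1 (0.88) and ENSSSCG00000031163 (0.88). They are the top 10 of all genes tested, so the height of r is the result of that choice and is given as a description. NDUFS1 is a subunit of complex I and PDHA1 one of pyruvate dehydrogenase, both in mitochondria. None of the 10 differed between the groups at an unadjusted edgeR p under 0.05.

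Of 49 other genes of fatty acid oxidation and its control, 45 had a row and 44 were tested between the groups, with a median log2 fold change of 0.07. At an unadjusted edgeR p under 0.05, 3 favoured High MB pigs and 1 Low MB pigs, and none was called. The share was 4 of 44, beside 8.46% of all genes tested. ACOT9, an acyl-CoA thioesterase, had 9.77 ± 3.83 CPM in High MB and 6.56 ± 1.02 CPM in Low MB pigs (SD, n = 6), or 0.57 ± 0.221 on the log2 scale (SE; exact permutation p = 0.0498), and its highest value, 16.6 CPM, was that of High MB pig 2. HSD17B8, which also serves mitochondrial fatty acid synthesis, had 22.3 ± 4.65 against 17.5 ± 3.27 CPM (0.35 ± 0.159, SE; exact permutation p = 0.0714), and the peroxisomal thiolase ACAA1 had 22.7 ± 3.47 against 18.6 ± 2.34 CPM (0.29 ± 0.124, SE; exact permutation p = 0.0433). ACAD11, an acyl-CoA dehydrogenase, had 9.98 ± 0.689 against 12.1 ± 1.75 CPM (-0.28 ± 0.117, SE; exact permutation p = 0.0281). The adjusted p of these 4 was between 0.563 and 0.578 (edgeR), and the count was 2 of 44 without High MB pig 3 or 4, 1 without Low MB pig 4 and 7 without High MB pig 2.

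These other genes were also ranked per kilobase within each role, with the genes of the set left out. CRAT, carnitine acetyltransferase (258 ± 28.8 CPM per kb, SD, n = 12), was the most abundant of the carnitine and activation genes. HADH, the short chain hydroxyacyl-CoA dehydrogenase (99.7 ± 21.8), led in the matrix. ETFDH (110 ± 30.4), which passes electrons to the respiratory chain, led in electron transfer. HSD17B4 (17.7 ± 1.24) led in the peroxisome and PDK4 (269 ± 216) among the genes of control. CRAT, HADH, ETFDH, HSD17B4 and PDK4 had log2 fold changes between groups of -0.05, 0.05, 0.09, -0.13 and -0.34, with no unadjusted edgeR p under 0.05. HSD17B4 varied little, and its 57.4 ± 3.18 CPM in the High MB and 62.8 ± 3.39 CPM in the Low MB group (SD, n = 6) gave an exact permutation p of 0.00649, against an edgeR p of 0.133. PDK4, the kinase that shuts pyruvate dehydrogenase when fat is burnt, spanned the widest range, from 194 CPM in High MB pig 3 to 2587 CPM in Low MB pig 4. PDK4 was also lower in the deep libraries (306 to 495 CPM) than in most standard ones (194 to 2587 CPM), with a log2 difference of -1.80, and with it ACSL1, ECI2, ACOT9, ETFDH, MLYCD and ESRRA, 7 of 44 in that direction and 0 in the other at an unadjusted p under 0.05, beside 8.08% and 5.78% of all genes. The count of lower genes was 6 to 9 with 1 pig left out (5.51% to 9.15% of all genes). It was 11 without both libraries that stand apart (5.61% of all genes).

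Markers of fibre types and of other cells were read from the same fit. Of 6 slow fibre markers tested, 5 were higher in the High MB group at an unadjusted edgeR p under 0.05 (TNNC1, TNNI1, TNNT1, MYL2 and MYL3, with log2 fold changes of 0.51 to 0.58), and their summed level was 6433 to 12555 CPM in the High MB and 4842 to 8404 CPM in the Low MB group. The most abundant per kilobase of exon, TNNC1 (2431 ± 690.1 CPM per kb, SD, n = 12), the slow troponin C, had 1447 ± 286 CPM in High MB and 970.1 ± 203 CPM in Low MB pigs (SD, n = 6). Of the fast fibre markers, 1 of 6 was lower (ATP2A1, -0.44), beside 3.13% of all genes, of the general skeletal muscle markers 0 of 6 passed, and of the markers of mitochondrial content 1 of 6 was higher (COX4I1, 0.28). With the depth class as a covariate both single counts were 0. With 1 pig left out, the fast fibre count was 0 in 8 of 12 fits and 2 without High MB pig 6, and the mitochondrial count was 0 to 1. At that threshold 5.33% of all genes were higher. Of the other cell types, 4 of 6 macrophage, 3 of 6 fibroblast, 2 of 9 adipocyte, 2 of 2 erythrocyte, 0 of 4 endothelial and 0 of 3 smooth muscle markers were higher, and no marker of any list was called by edgeR. Without High MB pig 2 the macrophage count was 2 of 6, and without both libraries that stand apart 4 of 6. Without Low MB pig 5 the adipocyte count was 8 of 9 and the endothelial count 3 of 4. With 1 pig left out, the counts ranged from 2 to 5 for macrophage, 1 to 5 for fibroblast, 1 to 8 for adipocyte, 1 to 2 for erythrocyte and 4 to 5 for slow fibre markers, and were lowest without Low MB pig 1 for fibroblast and without High MB pig 5 for erythrocyte markers. These alternatives were added after seeing the data. The summed level was 34.3 to 108.5 CPM in the High MB (34.3 to 55.4 without High MB pig 2) against 20.8 to 43.4 CPM in the Low MB group for macrophages, 630.1 to 1118 against 326 to 828 CPM for fibroblasts and 463 to 898 against 433 to 816 CPM for adipocytes, and no tested marker was at 0 in any pig. In these bulk samples, fewer cells of a type and less RNA per cell cannot be told apart, and the part of the make-up of the tissue in the levels of the oxidation genes was not tested.

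ECH1 was measured both as a gene (ENSSSCG00000028943, chr6:47627056-47638961, minus strand) and as the transcript ENSSSCT00000045996. Gene and transcript gave different pictures. The gene ranged from 33.6 through 47.6 to 60.8 CPM in the High MB and from 33.2 through 38.3 to 62.8 CPM in the Low MB group, with a log2 fold change of 0.11 ± 0.178 (SE; 95% interval -0.28 to 0.51; edgeR adjusted p = 0.885), within the range of the 9 oxidation genes. With 1 pig left out, the log2 fold change of the gene was 0.028 to 0.26. The transcript had 1.09 through 1.58 to 2.29 CPM in the High MB and 2.07 through 3.51 to 6.83 CPM in the Low MB group. Of the 6 Low MB pigs, 5 lay above every High MB pig.

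The ECH1 transcript was chosen by the study on these samples, so its difference is a description and not independent evidence. The log2 fold change was -1.24 ± 0.32 (SE; edgeR p = 0.00146, adjusted p = 0.689 over 9859 transcripts; exact permutation p = 0.00433), and 2.13% of the transcripts tested had a negative change at an unadjusted p under 0.05. It rests on 16 to 98 counts per pig. By depth class the log2 difference was -0.68 (deep, 2 against 3 pigs) and -1.48 (standard, 4 against 3 pigs), neither tested. Genes and transcripts were counted separately, with transcript totals at 32.5% to 38.0% of the gene totals, so the transcript count is not a share of the gene count. A difference of this size was not seen in the gene's counts, nor in those of the 9 oxidation genes.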

How the data were processed

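For each of the 12 pigs the authors deposited raw counts per gene and per transcript (12 gene and 12 transcript tables), without normalization. Per the labels and the methods of the study, paired reads from NEBNext libraries were quality checked with FastQC, trimmed with Trim Galore, aligned to Sscrofa11.1 with HISAT2 and counted with HTSeq. Tool versions, the annotation release and the strand setting are not given in the sources used here. HTSeq's summary lines, which name no gene, were left out of library sizes and tests. Reads without a feature were 46.4% to 47.7% of all lines, and those with more than 1 alignment 4.24% to 6.44%.

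Groups came from the labels. A symbol was listed for 14857 of the 25880 gene identifiers. Counts were fitted with edgeR 4.0.16 in R 4.3.3 (TMM, filterByExpr, glmQLFit, glmQLFTest; High MB against Low MB, no covariate), Benjamini-Hochberg adjusted over all features tested, and called where the adjusted p was under 0.10 and the absolute log2 fold change over 0.58. DESeq2 1.42.0, the tool of the study, was an alternative. Both were tested on simulated data with planted changes larger than any difference seen in the set. That test does not show whether changes as small as those of the set would be found. CPM used TMM, and log2 CPM a prior count of 2. Standard errors came from the test statistic, and 95% intervals used the residual degrees of freedom (10, or 9 with the depth class). A single value was tested by exact permutation, two-sided, over the 924 ways to draw 6 of 12 pigs (smallest p 0.00216), or over all ways to draw the 5 deep libraries. Pairs of genes used 100000 resamples. Libraries of over 50000000 gene counts were classed as deep. p-values measure the spread between pigs, 1 library each, and no pair of libraries within a group agreed within sampling noise. Exon lengths, positions and promoters are those of RefSeq on Sscrofa11.1, the build of the files.

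The genes named are the set, ECH1, of the other oxidation genes those with an unadjusted p under 0.05 and the most abundant of each role, the 10 most alike over the pigs, and of the marker lists the most abundant gene of the list described. Other genes were named after their values were seen. The set and the lists were chosen with earlier results of these data known. Alternatives were other size factors, filters and thresholds, robust estimation, the depth class, a block on the individual number, taking out the 10 most counted features and leaving out pigs.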

Additional observations from a re-analysis of the deposited data

How the results depend on the processing

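No gene of the set was called under any alternative run. DESeq2 called 29 genes in all against 0 by edgeR, at which 1132 genes had an unadjusted p under 0.05 (1454 by DESeq2). The count of set members with an unadjusted p under 0.05 was 1 with upper quartile size factors (CPT2; 8.34% of all genes), 2 without High MB pig 2 and Low MB pig 4 (8.17%), and 0 to 2 when 1 pig was left out (6.27% to 10.8%), with 2 without High MB pig 2 (10.3%). For the 44 other oxidation genes it ranged from 1 to 7 with 1 pig left out. The count of set members lower in deep libraries at an unadjusted p under 0.05 was between 5 and 8 over all alternatives. It was 5 to 6 with 1 pig left out, beside 5.51% to 9.15% of all genes. The sign of ACADL in that contrast turned in 10 of 16 alternatives. The cause of these shifts was not tested.

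Signs turned where the difference was near 0. Within the standard libraries the log2 difference was -0.16 for CPT1B and ACADVL, -0.14 for HADHB and -0.091 for ECH1, and within the deep ones 0.075 for SLC25A20 and 0.097 for HADHA. With the depth class as a covariate it was -0.070 for ACADVL and -0.062 for HADHB. Upper quartile size factors gave 0.025 for SLC25A20 (exact permutation p = 0.753) and 0.056 for HADHA. HADHA was at 0.0043 with RLE size factors, 0.0033 with DESeq2, 0.020 with at least 10 counts in every pig, 0.013 without the 10 most counted features and 0.084 without both libraries that stand apart. With 1 pig left out, the log2 fold change ranged from -0.043 to 0.18 for CPT1B, -0.086 to 0.068 for SLC25A20, -0.10 to 0.12 for ACADVL, -0.081 to 0.10 for HADHA, -0.093 to 0.16 for HADHB and -0.0010 to 0.17 for DECR1. The exact permutation p then ranged from 0.355 to 0.909 for CPT1B, 0.485 to 0.989 for SLC25A20, 0.535 to 1.0 for ACADVL, 0.567 to 0.996 for HADHA, 0.496 to 0.974 for HADHB and 0.364 to 0.909 for DECR1. The ECH1 transcript was between -1.37 and -0.99 over the fits and leave-outs, -0.68 among deep and -1.48 among standard libraries.

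The individual numbers of the labels were checked for pairing. Deviations of same-numbered pigs from their group means correlated between -0.21 and 0.14, over 0.1 in 1 of 6 pairs. With their own number, 0 of 6 correlated best. The numbers were therefore taken as names of pigs, though 6 pairs cannot exclude a weak pairing. With the number as a replicate block, 0 genes were called, 0 set members and 1 of the 44 other oxidation genes had an unadjusted p under 0.05, and HADHA had a log2 fold change of 0.010.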
